A study of Mus musculus with 9 samples.

Results

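The cytochrome P450 enzymes described here are the genes whose symbols start with Cyp and a digit, apart from the vitamin D genes Cyp24a1 and Cyp27b1 and the cholesterol synthesis gene Cyp51. Of 95 such symbols with a probe on the arrays, 68 had a probe that was well above background on 2 or more arrays, out of 23878 genes and unnamed transcripts tested. The other 27 did not reach that level, among them Cyp7a1 and Cyp8b1 of bile acid synthesis, Cyp1a2, Cyp19a1 and Cyp4x1. Of the 68, 51 were well above background on all 9 arrays and 17 on fewer.

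RNA from kidney cortex of mice aged 12 to 16 weeks was measured on one-colour Agilent arrays. In unilateral ureteral obstruction (UUO) the right ureter was tied for 5 days, a standard way to bring about tubular injury and scarring. The 4 groups were wild-type healthy kidney (2 arrays), wild-type UUO kidney (2 arrays), Notch3-/- healthy kidney (2 arrays) and Notch3-/- UUO kidney (3 arrays). The design text says that the left, untreated kidneys were also taken, and the labels do not say whether the healthy arrays hold those. The strain and the Notch3 allele are not given in the labels, and nothing says that the arrays of a group come from separate animals, so the p-values measure only the spread between these arrays, which may be technical.

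P450 enzymes are heme proteins that insert 1 atom of oxygen into fatty acids, steroids, retinoids, vitamins and drugs. Most sit in the endoplasmic reticulum and take electrons from the reductase Por, and a few sit in mitochondria and take them from the ferredoxin Fdx1. In kidney they are concentrated in the proximal tubule. There the Cyp2c and Cyp2j epoxygenases turn arachidonic acid into epoxides that widen vessels and promote salt loss, and Cyp4a and Cyp4f enzymes hydroxylate arachidonic acid and leukotrienes. Several renal P450 genes of the mouse are known to depend on androgens and so differ between males and females.

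Levels are log2 signals relative to the 75th percentile of the array, so a level of 0 equals that percentile, and levels of different genes are not compared because each has its own probe. Between 65.3% and 73.2% of the spots on an array were well above background, and no spot was saturated. Notch3 itself stood between -0.50 and 0.92 on the wild-type arrays and between -5.39 and -3.63 on the Notch3-/- arrays. Summed levels of 13 proximal tubule markers lay between 8.72 and 10.77, with all 13 well above background on every array. A change was called at an adjusted p under 0.05 (limma, Benjamini-Hochberg over all 23878 features).

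Replicates 2 and 3 of the Notch3-/- UUO group stood apart from the other 7 arrays. Xist, transcribed from the inactive X chromosome of females, was at 0.18 and -0.00 there and at or below -5.71 elsewhere, and the Y-linked Ddx3y was at -3.80 and -3.67 against at least -0.26, although the mice are described as matched for sex. The summed adrenal cortex markers were at 7.92 and 8.25 on these arrays and between 0.15 and 1.17 on the others. The summed adrenal medulla markers were at 5.62 and 5.88 against at most -0.93. The 11 cortex markers include the P450 members Cyp11a1, Cyp11b1, Cyp11b2 and Cyp21a1, so their sum is not separate from these members. The medulla markers hold no P450 gene. Of the 68 P450 genes, 18 (26.5%) had their lowest levels of all 9 arrays on exactly this pair, against 12.2% of the 23834 features with a value on every array. Another 9 (13.2%) had their highest levels there, against 11.9%, and of these Cyp11a1 and Cyp11b2 entered the 68 members only through this pair. Notch3-/- changes of the members described are therefore also given without these arrays. Without them 1 Notch3-/- UUO array is left.

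**Figure D1:**
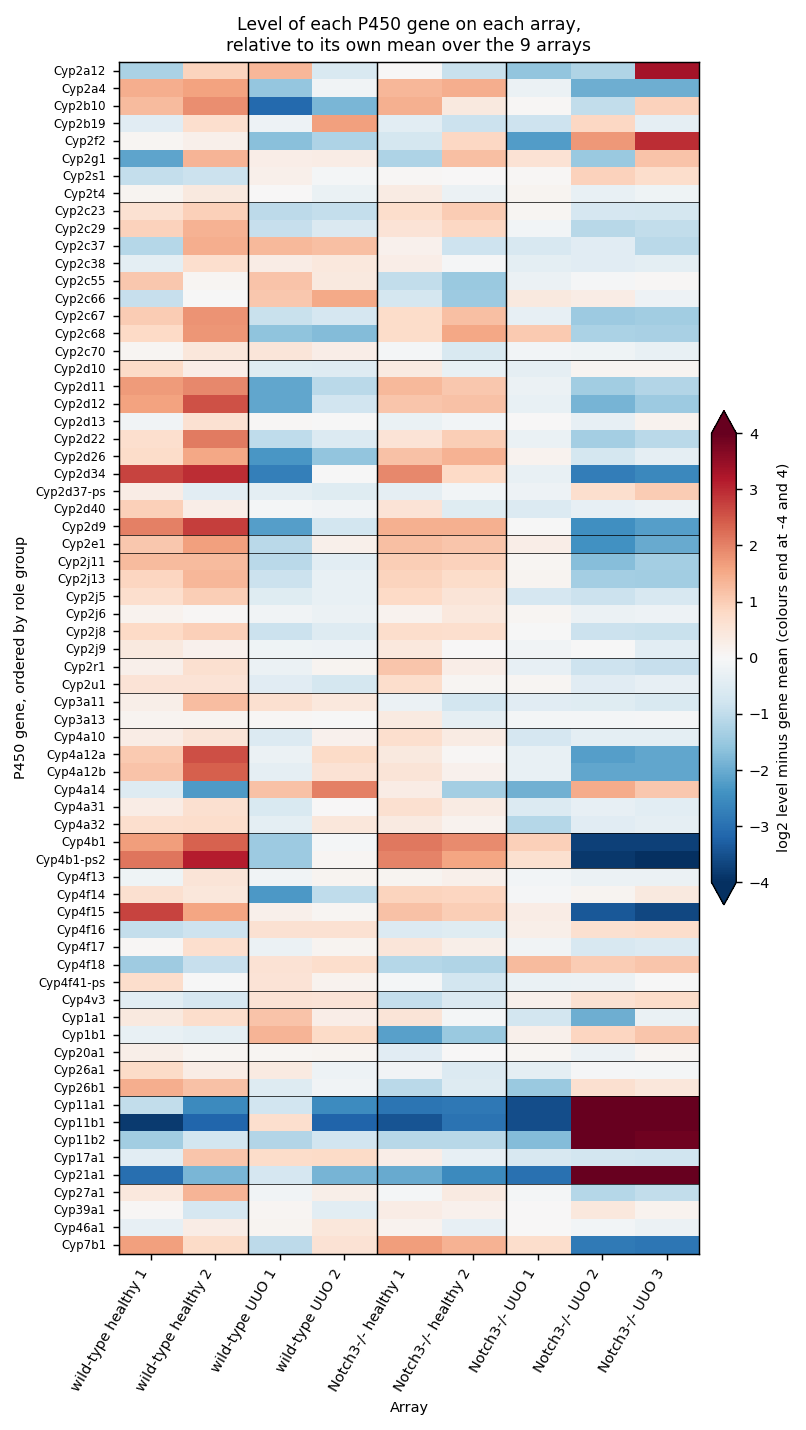
Heat map of the 68 P450 genes (rows, ordered by role group with thin lines between groups) on the 9 arrays (columns), each cell the log2 level minus that gene's mean over the arrays, with colours ending at -4 and 4. Most Cyp2d and Cyp2j rows and several Cyp2c rows are red on healthy and blue on UUO arrays, and the last 2 columns stand apart in the Cyp4b and Cyp7b1 rows and in the Cyp11 and Cyp21a1 rows.

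In wild-type kidneys P450 genes were lower after obstruction more often than they were higher. No slide held both wild-type healthy and wild-type UUO arrays, so slide and obstruction cannot be told apart there. Of 68 members, 18 fell (26.5%) and 6 rose (8.82%), and over all features 25.9% were called, 11.8% lower and 14.1% higher. The median log2 change was -0.48 over the members and 0.04 over all features. The falls lay mainly in Cyp2d (7 of 10), Cyp2c (4 of 9) and Cyp2j (3 of 6), and no member of Cyp2d or Cyp2j rose. After obstruction of Notch3-/- kidneys 16 fell (23.5%) and 5 rose (7.35%), where 27.2% of all features were called, 13.9% lower and 13.3% higher, with medians of -0.46 and -0.07. Their falls were again in Cyp2d (5 of 10), Cyp2j (4 of 6) and Cyp2c (3 of 9), with 2 of 6 in Cyp4a. In all, 12 members fell in both genotypes, 5 rose in both, 40 were called in neither, and 0 were called in opposite directions. Among those that rose in both, Cyp2c66 entered the 68 members only through UUO arrays.

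The number called depended on single arrays, among the members and over all features. Over all features 3171 were higher and 3322 lower in Notch3-/- obstruction, and 4161 and 4482 without Notch3-/- UUO replicate 1. Without replicate 2 they were 1475 and 295, and without replicate 3 they were 1480 and 288. The counts that follow are of members. Without wild-type UUO replicate 1 the wild-type count went from 24 to 5 (Cyp2d11, Cyp2d26 and Cyp4f14 lower, Cyp4f16 and Cyp4f18 higher), without wild-type UUO replicate 2 to 13, and without either wild-type healthy array to 14. The Notch3-/- count of 21 became 1 (Cyp4f18) without the pair of arrays with high Xist and 4 with a term for that pair (Cyp1b1, Cyp4f16 and Cyp4f18 higher, Cyp2j5 lower). It became 41 without Notch3-/- UUO replicate 1, 5 without replicate 2 or without replicate 3, and 3 and 6 without Notch3-/- healthy replicate 1 and 2. All 16 members called lower and all 5 called higher kept their direction on Notch3-/- UUO replicate 1 alone, the former with a median log2 change of -1.08 (range -1.63 to -0.69) in place of -1.62, the latter with 1.48 (0.74 to 2.46) in place of 1.28.

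**Figure D2:**
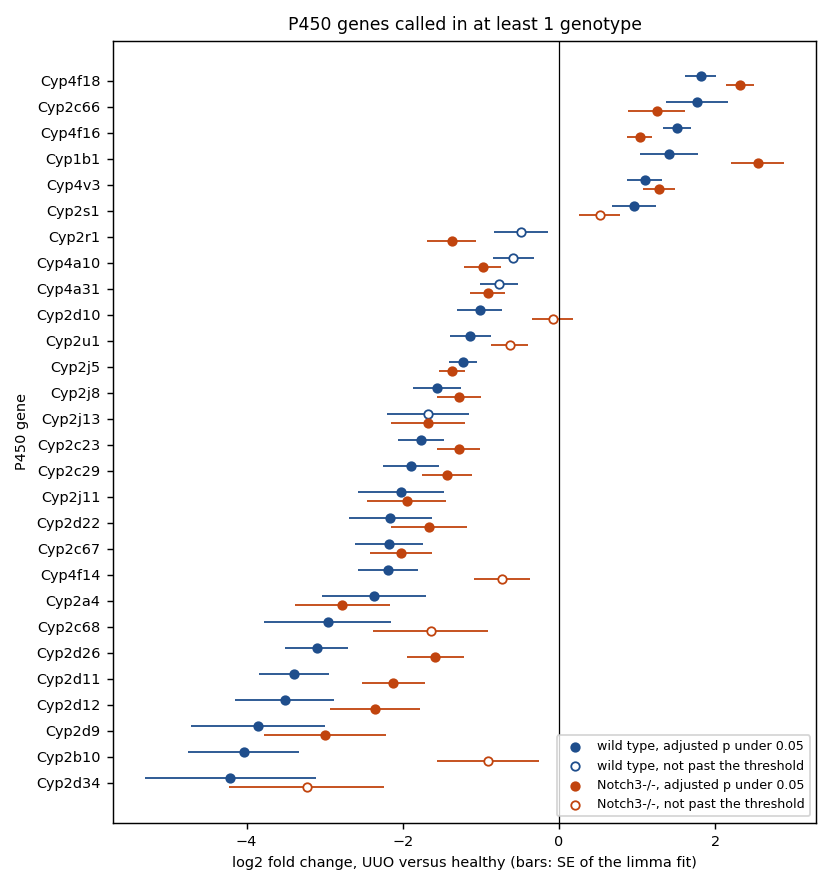
Log2 fold change, UUO against healthy, of each P450 gene called in at least 1 genotype, in wild-type (blue) and Notch3-/- (red) kidneys, with the SE of the limma fit as bars. Filled points passed an adjusted p of 0.05 and open points did not, and no gene has filled points on opposite sides of 0.

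Cyp2d, a cluster on chromosome 15 that metabolises drugs and steroids, held 7 of the 18 wild-type and 5 of the 16 Notch3-/- falls. All 10 measured Cyp2d members had estimates below 0 in wild-type kidneys (median -2.63), and 7 passed. Cyp2d11 stood at 5.45 and 5.66 on the wild-type healthy arrays, 1.67 and 2.66 on the wild-type UUO arrays, 5.04 and 4.81 on the Notch3-/- healthy arrays, and 3.501, 2.36 and 2.56 on the Notch3-/- UUO arrays. Every UUO level lay below every healthy level, and the falls were 10.49-fold (log2 -3.39, SE 0.45, adjusted p = 0.00428) and 4.35-fold (log2 -2.12, SE 0.41, adjusted p = 0.0159). Cyp2d26 fell from 4.55 and 5.38 to 1.47 and 2.25 in wild-type kidneys, and from 4.97 and 5.21 to 3.96, 3.12 and 3.44 in Notch3-/- kidneys. These falls were 8.58-fold (adjusted p = 0.00411) and 2.995-fold (adjusted p = 0.0249). Without the arrays with high Xist the Notch3-/- log2 changes were -1.43 for Cyp2d11 and -1.13 for Cyp2d26. Cyp2d11 and Cyp2d26 were among the 4 members, with Cyp4f16 and Cyp4f18, whose wild-type call held under every alternative tried.

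Cyp2d12, Cyp2d9 and Cyp2d22 also fell in both genotypes. Cyp2d12 had levels of 2.68 and 3.61 in wild-type healthy, -1.03 and 0.29 in wild-type UUO, 2.18 and 2.24 in Notch3-/- healthy, and 0.77, -0.81 and -0.41 in Notch3-/- UUO kidneys, an 11.4-fold and a 5.12-fold fall (adjusted p = 0.0118 and 0.0286). Cyp2d9, a testosterone hydroxylase known as male-specific in liver, went from 2.41 and 3.17 to -1.80 and -0.34 (14.5-fold, adjusted p = 0.0212) and from 1.83 and 1.84 to 0.38, -2.06 and -1.80 (7.97-fold, adjusted p = 0.0332). On replicate 1 alone of the Notch3-/- UUO arrays the log2 change was -1.46 rather than -2.995 for Cyp2d9, -1.43 for Cyp2d12 and -1.02 for Cyp2d22. Cyp2d22 went from -0.89 and 0.51 to -2.59 and -2.11 in wild-type and from -1.02 and -0.57 to -1.82, -2.91 and -2.64 in Notch3-/- kidneys (4.47-fold, adjusted p = 0.0282, and 3.17-fold, adjusted p = 0.0446).

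Cyp2d34 and Cyp2d10 passed in wild-type kidneys without passing in Notch3-/- kidneys. Cyp2d34 was at 0.99 and 1.25 on healthy and -4.44 and -1.75 on UUO wild-type arrays (18.5-fold, adjusted p = 0.0329), and at 0.19 and -0.91 against -2.01, -4.47 and -4.30 in Notch3-/- kidneys (log2 -3.23, adjusted p = 0.0525, and -1.65 without the arrays with high Xist). A second probe of Cyp2d34 gave -2.93 (adjusted p = 0.0138) and -2.49 (adjusted p = 0.019). Cyp2d10 lay nearer to background, at -4.20 and -4.72 against -5.47 and -5.49 in wild-type kidneys (2.03-fold, adjusted p = 0.0429), with a Notch3-/- estimate of -0.08. Cyp2d13, Cyp2d37-ps and Cyp2d40 did not pass in either genotype, and the first 2 are annotated as transcribed pseudogenes. The Cyp2d genes are close copies of one another, so their probes may share signal and their falls are not independent.

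All 10 Cyp2d genes had an interaction estimate (Notch3-/- change minus wild-type change) above 0, with a median of 0.96 against -0.07 over all features. In Notch3-/- kidneys 8 of the 10 changes were below 0, and Cyp2d13 and Cyp2d37-ps were at 0.12 and 0.71. None passed (smallest adjusted p = 0.647), and 0.0% of all features were called for the interaction (1705 at an unadjusted p under 0.05), with 0 members called and 5 at an unadjusted p under 0.05. The genotypes are thus not shown to differ in their response. Wild-type UUO replicate 1 had the lowest level of all 9 arrays for Cyp2d11, Cyp2d12 and Cyp2d26.

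The Cyp2j genes on chromosome 4 encode epoxygenases, of which Cyp2j5 is the best known in kidney. Cyp2j5 stood at -0.03 and 0.28 in wild-type healthy and -1.21 and -1.004 in wild-type UUO kidneys (2.34-fold lower, SE 0.18 on the log2 scale, adjusted p = 0.00598). The Notch3-/- levels went from 0.07 and -0.22 to -1.39, -1.59 and -1.37 (2.59-fold, SE 0.16, adjusted p = 0.003). The UUO levels of all 5 arrays were below every healthy level, and the arrays with high Xist lay on both sides of replicate 1, so that the change without them was -1.32 against -1.37. Cyp2j8 went from 4.12 and 4.25 to 2.47 and 2.79 (2.95-fold, adjusted p = 0.0152) and from 4.02 and 3.997 to 3.31, 2.47 and 2.41 (2.43-fold, adjusted p = 0.0218). Cyp2j11 went from 2.31 and 2.30 to -0.06 and 0.61 (4.07-fold, adjusted p = 0.0379) and from 2.02 and 1.96 to 1.10, -0.66 and -0.33 (3.87-fold, adjusted p = 0.0322). Without the arrays with high Xist the Notch3-/- log2 changes were -0.70 for Cyp2j8 and -0.88 for Cyp2j11.

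Cyp2j13, reported as higher in male kidney, had changes of -1.68 in both genotypes on its brightest probe. Adjusted p was 0.0555 in wild-type and 0.0413 in Notch3-/- kidneys. Its other probes gave -2.01 and -2.34 in wild-type (adjusted p = 0.25 and 0.312) and -3.10 and -3.84 in Notch3-/- kidneys (adjusted p = 0.074 and 0.0902). On the brightest probe the Notch3-/- UUO levels were 1.36 on replicate 1 and -0.11 and -0.16 on replicates 2 and 3. The change on replicate 1 alone was -0.69. Cyp2j6 and Cyp2j9 changed by -0.28 and -0.47 in wild-type and by -0.39 and -0.42 in Notch3-/- kidneys and did not pass.

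Of 9 Cyp2c genes, 4 fell and 1 rose in wild-type kidneys, and 3 fell and 1 rose in Notch3-/- kidneys. Cyp2c23, an epoxygenase of the renal tubule, stood at 1.33 and 1.66 in wild-type healthy, -0.32 and -0.23 in wild-type UUO, 1.41 and 1.74 in Notch3-/- healthy, and 0.81, 0.06 and -0.00 in Notch3-/- UUO kidneys. It fell 3.41-fold (log2 -1.77, SE 0.30, adjusted p = 0.00922) and 2.44-fold (log2 -1.29, SE 0.27, adjusted p = 0.0196). Cyp2c29, known mainly from liver, went from -3.02 and -2.57 to -4.86 and -4.53 (3.73-fold, adjusted p = 0.0132) and from -3.40 and -3.12 to -4.07, -5.07 and -4.94 (2.70-fold, adjusted p = 0.0233). Both genes had every UUO level below every healthy level. Without the arrays with high Xist their Notch3-/- log2 changes were -0.77 and -0.81.

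Cyp2c67 fell 4.53-fold (adjusted p = 0.0159) and 4.07-fold (adjusted p = 0.0169), with healthy levels between -3.97 and -2.91 and UUO levels between -6.15 and -5.04. It was well above background on 1 of 2 wild-type UUO and 2 of 3 Notch3-/- UUO arrays, so these folds rest in part on background signal. Its Notch3-/- log2 change was -1.30 without the arrays with high Xist. Cyp2c68 was at -4.19 and -3.22 in wild-type healthy kidneys and not well above background on either wild-type UUO array, at least 4.86-fold lower (adjusted p = 0.038). Such a bound sets the brighter group's mean against the lowest signals well above background in the dimmer group. In Notch3-/- UUO kidneys Cyp2c68 was at -3.94 on replicate 1 and at -6.24 and -6.28 on replicates 2 and 3, and it did not pass (log2 -1.64, adjusted p = 0.141, and -0.10 without that pair). Cyp2c66, whose product is an intestinal epoxygenase, was the 1 Cyp2c gene called higher. It was well above background on both wild-type UUO arrays (-5.34 and -4.88) and on neither wild-type healthy array, at least 1.87-fold higher (adjusted p = 0.0224). The Notch3-/- call of Cyp2c66 (log2 1.25, adjusted p = 0.0452) rests on 1 array above background, and with normexp background correction the estimate was -0.35. Cyp2c37, Cyp2c38, Cyp2c55 and Cyp2c70 did not pass in either genotype.

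Members of the other xenobiotic subfamilies of family 2 behaved unevenly. Cyp2a4, a testosterone hydroxylase, stood at 6.42 and 6.58 in wild-type healthy and 3.44 and 4.83 in wild-type UUO kidneys (5.16-fold lower, adjusted p = 0.0419). In Notch3-/- kidneys it went from 6.30 and 6.45 to 4.74, 3.03 and 3.02 (6.85-fold, adjusted p = 0.0215), and the change on replicate 1 alone was -1.63 rather than -2.78. Cyp2b10, the classical target of the receptor Nr1i3 in liver, was at -1.89 and -1.29 in wild-type healthy kidneys and -6.26 and -4.99 in wild-type UUO kidneys, where 1 of 2 arrays was above background (16.4-fold lower, adjusted p = 0.0108). In Notch3-/- kidneys its levels overlapped, at -1.72 and -2.77 against -3.10, -4.14 and -2.23 (log2 -0.91, adjusted p = 0.331). The difference between these responses was 3.13 and did not pass (adjusted p = 0.577).

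Cyp2s1, an epithelial P450 of tissues outside the liver, was at 1.30 and 1.42 in healthy and 2.46 and 2.18 in UUO wild-type kidneys (1.945-fold higher, adjusted p = 0.0482). Its Notch3-/- levels were 2.31 and 2.27 against 2.30, 3.18 and 2.97, and did not pass (log2 0.52, adjusted p = 0.178). Cyp2r1, a vitamin D hydroxylase, went from 1.92 and 1.06 to 0.50, -0.03 and -0.11 in Notch3-/- kidneys (2.59-fold lower, adjusted p = 0.024), and its wild-type change of -0.49 did not pass. Without the arrays with high Xist the Notch3-/- change of Cyp2r1 was -0.996. A second Cyp2r1 probe gave -0.40 in Notch3-/- kidneys (adjusted p = 0.0872). Cyp2u1, a fatty acid hydroxylase, was not well above background on either wild-type UUO array and was at least 1.42-fold lower than in wild-type healthy kidneys (adjusted p = 0.0229), where 1 of 2 arrays measured it. Cyp2a12, Cyp2b19, Cyp2f2, Cyp2g1 and Cyp2t4 did not pass.

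**Figure D3:**
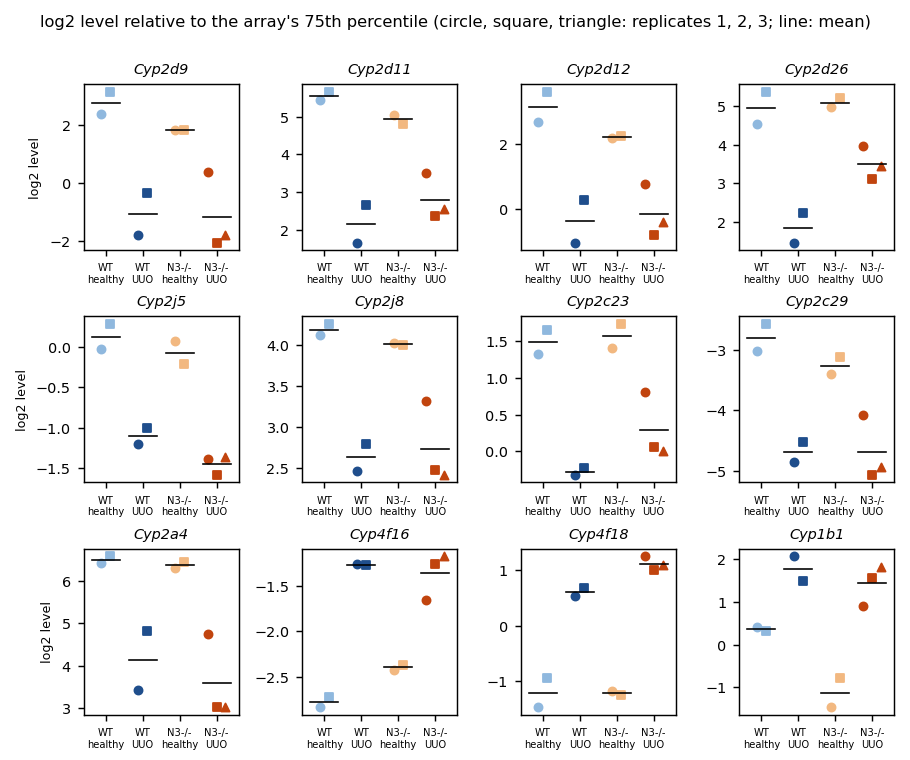
Log2 levels of 12 P450 genes on each array, by group (WT, wild type; N3-/-, Notch3-/-), with replicates as circles, squares and triangles and the group mean as a line. In the panels of Cyp2d, Cyp2j, Cyp2c and Cyp2a4 the UUO arrays sit below the healthy arrays, and in those of Cyp4f16, Cyp4f18 and Cyp1b1 they sit above the healthy arrays of their genotype.

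Because Cyp2c and Cyp2j epoxygenase genes fell side by side, promoters of the family were searched for short motifs of factors known to act on P450 genes. The stretches below are the 250 bases before the annotated start, written 5′ to 3′ on the strand of the gene, for 1 called gene of each of these subfamilies that holds AGGTCA, the core of sites for nuclear receptors, which capitals mark. Sequences are from RefSeq on build GRCm38.p6, at chr19:39286835-39287084 (plus strand) for Cyp2c29 and chr4:96664120-96664369 (minus strand) for Cyp2j5.
Cyp2c29: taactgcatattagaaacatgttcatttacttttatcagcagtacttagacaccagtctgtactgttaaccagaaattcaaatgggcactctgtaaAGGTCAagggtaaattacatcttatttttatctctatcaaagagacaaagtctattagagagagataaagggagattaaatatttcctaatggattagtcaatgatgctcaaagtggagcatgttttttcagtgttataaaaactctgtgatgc
Cyp2j5: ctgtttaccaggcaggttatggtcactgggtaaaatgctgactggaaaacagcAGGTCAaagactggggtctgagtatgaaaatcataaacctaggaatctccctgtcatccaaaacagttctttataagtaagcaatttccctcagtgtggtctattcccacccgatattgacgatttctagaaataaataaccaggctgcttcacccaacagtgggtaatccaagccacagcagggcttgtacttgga

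The matches began 154 and 197 bases before the start in Cyp2c29 and Cyp2j5. Of the 68 members, 46 had a promoter in the table, 51 promoters in all, searched on both strands from 250 bases before to 50 bases after the start. AGGTCA occurred in 10 of these (19.6%) and in 16.3% of all 32851 promoters. Most of its holders were not called in obstruction. Cyp2a4, Cyp2c29 and Cyp2j5 were called, and Cyp11a1, Cyp2b19, Cyp2c70, Cyp2d40, Cyp2f2, Cyp2t4 and Cyp3a11 were called in neither genotype. A direct repeat of AGGTCA spaced by 1 base occurred in 0 of the 51. The dioxin response element of Ahr, TNGCGTG, occurred in 1 (1.96%, Cyp2c68) and in 5.07% of all. A match is a description of the letters in this window and not of binding.

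In the Cyp4a cluster of chromosome 4, whose enzymes hydroxylate fatty acids and are targets of Ppara, 2 members fell in Notch3-/- kidneys. Cyp4a10 went from 4.78 and 4.46 to 3.46, 3.74 and 3.74 (1.96-fold, adjusted p = 0.0278), and Cyp4a31 from 4.69 and 4.37 to 3.49, 3.72 and 3.63 (1.88-fold, adjusted p = 0.0283). In wild-type kidneys they went from 4.40 and 4.62 to 3.57 and 4.28 and from 4.35 and 4.68 to 3.43 and 4.06, and did not pass (adjusted p = 0.139 and 0.059). Cyp4a10 and Cyp4a31 are near-identical copies whose probes may read both, so their falls are not independent. Cyp4a32 changed by -0.65 and -0.91 and did not pass. Without the arrays with high Xist the Notch3-/- changes of Cyp4a10, Cyp4a31 and Cyp4a32 were -1.16, -1.03 and -1.41.

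Cyp4a14, known to be higher in female kidney, had the largest upward estimate of wild-type obstruction among members, 2.99 (SE 1.22, adjusted p = 0.115), with levels of 1.79 and 0.06 in healthy and 3.49 and 4.34 in UUO kidneys. In Notch3-/- kidneys it was at 2.62 and 0.94 on healthy and at 0.40, 3.78 and 3.38 on UUO arrays. Replicate 1 of the Notch3-/- UUO arrays was thus below both healthy arrays while replicates 2 and 3 were above them, and the change did not pass (log2 0.74, adjusted p = 0.656). On replicate 1 alone it was -1.38.

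In several genes listed as higher in male kidney the Notch3-/- UUO arrays stood far apart. Cyp4b1, which oxidises fatty acids and protoxins, stood at 6.57 and 7.24 in wild-type healthy, 3.44 and 4.81 in wild-type UUO, and 6.97 and 6.77 in Notch3-/- healthy kidneys. On the Notch3-/- UUO arrays it stood at 5.83, 1.15 and 1.14. The Notch3-/- change of -4.17 (SE 1.39) did not pass (adjusted p = 0.066) and was -1.04 on replicate 1 alone, and the wild-type change of -2.78 did not pass either (adjusted p = 0.222). Its pseudogene Cyp4b1-ps2 gave -3.33 and -4.27 (adjusted p = 0.161 and 0.0659), the latter -1.13 on replicate 1 alone.

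Cyp7b1, an oxysterol hydroxylase, had levels of 3.98 and 3.08, 1.28 and 2.91, 4.01 and 3.73, and 3.03, -0.50 and -0.56 in the same order of groups. Cyp2e1, which oxidises ethanol and acetone, had 6.66 and 7.23, 4.52 and 5.79, 6.79 and 6.68, and 5.86, 3.18 and 3.57. Cyp4a12a, the main source of 20-HETE in male mouse kidney, had 1.70 and 3.23, 0.43 and 1.44, 1.06 and 0.72, and 0.35, -1.56 and -1.43. In each, replicates 2 and 3 of the Notch3-/- UUO group were the lowest of all 9 arrays. The Notch3-/- changes were -3.21, -2.54 and -1.77 (adjusted p = 0.0743, 0.0562 and 0.106) and -0.84, -0.88 and -0.54 without that pair. Cyp4a12b, a near-identical copy of Cyp4a12a whose probe may share its signal, changed by -1.66 and -1.84 and did not pass (adjusted p = 0.13 and 0.0766), with -0.65 in Notch3-/- kidneys without the pair.

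Of the 7 P450 genes listed as higher in males, 1 passed in wild-type kidneys (Cyp2d9) and 2 in Notch3-/- kidneys (Cyp2d9 and Cyp2j13), all lower. The sum of their levels was 7.84 to 8.44 in wild-type healthy, 5.36 to 6.64 in wild-type UUO, 7.89 to 8.05 in Notch3-/- healthy kidneys, 7.03 on Notch3-/- UUO replicate 1, and 3.81 and 4.07 on replicates 2 and 3. Androgen-dependent kidney genes outside the family stood lowest on the same pair, Slco1a1 at -5.09 and -5.01 against -0.47 on replicate 1 and Kap at 7.44 and 7.51 against 8.21. The part of sex in these P450 levels was not tested, since the pair also carries the adrenal transcripts. Of 4 androgen-dependent genes outside the family, 1 fell in wild-type and 3 in Notch3-/- kidneys. Of 2 kidney genes higher in females, 0 were called in either genotype. Cyp2a4 had its lowest levels, 3.03 and 3.02, on the pair. It was listed here as higher in females, a placement that was not tested for kidney.

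**Figure D4:**
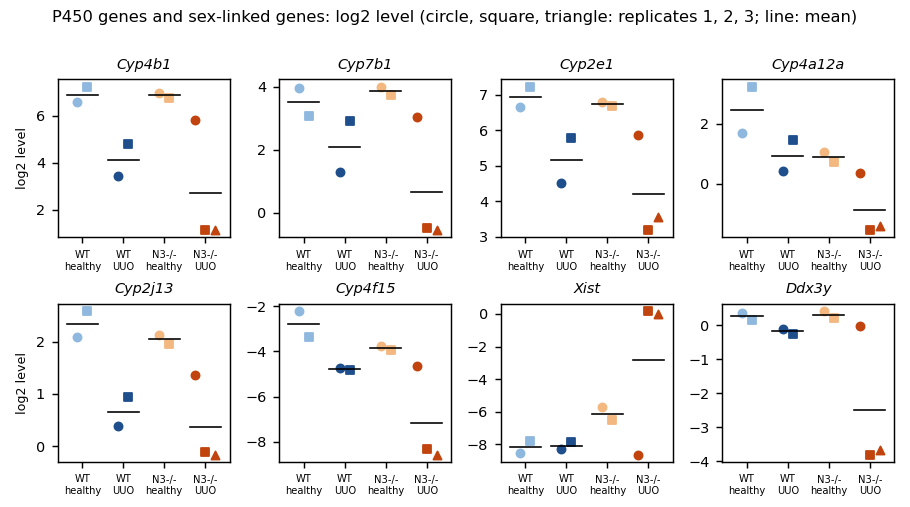
Log2 levels of 6 P450 genes and of Xist and Ddx3y on each array, by group (WT, wild type; N3-/-, Notch3-/-), with replicates as circles, squares and triangles and group means as lines. The squares and triangles of the Notch3-/- UUO group, replicates 2 and 3, are the lowest points of every P450 panel and of Ddx3y and the highest points of Xist.

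The Cyp4f genes, whose enzymes hydroxylate leukotrienes and other fatty acids, moved in both directions, with 2 of 7 higher in each genotype and 1 lower in wild type. Cyp4f18, a leukotriene B4 hydroxylase known from myeloid cells, stood at -1.47 and -0.95 in wild-type healthy and 0.53 and 0.68 in wild-type UUO kidneys (3.51-fold higher, SE 0.20 on the log2 scale, adjusted p = 0.0022). In Notch3-/- kidneys it went from -1.18 and -1.24 to 1.24, 0.99 and 1.09 (4.99-fold, SE 0.18, adjusted p = 0.000714). It was the 1 member whose Notch3-/- call held under every alternative tried, with 2.46 on replicate 1 alone (adjusted p = 0.038). Of 5 macrophage markers tested, 4 rose in each genotype, among them Adgre1 by 3.36 and 3.48 and Csf1r by 0.89 and 0.73, while Itgam fell in Notch3-/- kidneys (-0.92, adjusted p = 0.0203). The summed macrophage markers were at 4.89 to 4.96 in wild-type healthy, 5.28 in wild-type UUO, 4.90 to 5.30 in Notch3-/- healthy and 4.83 to 5.21 in Notch3-/- UUO kidneys. Their part in the Cyp4f18 level was not tested.

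Cyp4f16 stood at -2.83 and -2.72 in wild-type healthy and -1.26 and -1.27 in wild-type UUO kidneys (2.85-fold higher, adjusted p = 0.00302), and rose from -2.42 and -2.37 to -1.65, -1.26 and -1.18 in Notch3-/- kidneys (2.05-fold, adjusted p = 0.00874, log2 0.74 without the arrays with high Xist). Cyp4f14 moved the other way in wild-type kidneys, from -2.58 and -2.76 to -5.51 and -4.21 (4.56-fold lower, adjusted p = 0.0111). Its Notch3-/- levels went from -2.32 and -2.35 to -3.26, -3.11 and -2.82 and did not pass (log2 -0.73, adjusted p = 0.169). Cyp4f15 was at -2.22 and -3.36, -4.72 and -4.84, -3.75 and -3.93, and -4.64, -8.32 and -8.57 in the 4 groups, the last 2 below background, and did not pass (adjusted p = 0.276 and 0.068). Its Notch3-/- change of -3.34 was -0.80 without that pair. Cyp4f13, Cyp4f17 and the pseudogene Cyp4f41-ps changed by -0.43 to 0.00 in wild-type kidneys and did not pass. In Notch3-/- kidneys they changed by -0.35, -0.81 and 0.22 and did not pass (adjusted p = 0.257, 0.055 and 0.602). Without the arrays with high Xist these changes were -0.27, -0.51 and 0.12.

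Apart from Cyp4f18, which is on chromosome 8, these Cyp4f genes lie near Notch3 on chromosome 17. In the gene table the number of coding genes between Notch3 and the member was 8 for Cyp4f17, 9 for Cyp4f16, 12 for Cyp4f15, 17 for Cyp4f14, 18 for Cyp4f13 and 19 for Cyp4f41-ps. Whether alleles of this stretch differ between the genotypes was not tested. Cyp4v3, a fatty acid hydroxylase, rose from -1.30 and -1.56 to -0.32 and -0.34 in wild-type (2.14-fold, adjusted p = 0.0166) and from -1.85 and -1.47 to -0.69, -0.28 and -0.16 in Notch3-/- kidneys (2.43-fold, adjusted p = 0.00911, log2 0.97 without the arrays with high Xist).

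Cyp1b1, which metabolises estrogens and aromatic hydrocarbons and is known from mesenchymal cells, rose in both genotypes. Its levels were 0.40 and 0.31 in wild-type healthy, 2.06 and 1.48 in wild-type UUO, -1.47 and -0.78 in Notch3-/- healthy, and 0.90, 1.56 and 1.82 in Notch3-/- UUO kidneys. The rises were 2.66-fold (adjusted p = 0.0342) and 5.84-fold (adjusted p = 0.00463, log2 2.55, and 2.02 without the arrays with high Xist), from a starting level lower in Notch3-/- healthy kidneys by an amount that did not pass (-1.48, adjusted p = 0.132). Fibroblast markers moved alongside: 3 of 4 rose in wild-type and 4 of 4 in Notch3-/- kidneys, with summed levels of 1.40 to 2.63 in healthy and 4.75 to 6.16 in UUO kidneys. Their part in the Cyp1b1 level was not tested. Cyp1a1, the classical Ahr target, stood between -6.52 and -3.41 and did not pass in either genotype (0.18 and -1.20), while Ahr itself rose by 0.83 and 0.71 (adjusted p = 0.0409 and 0.0483).

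The high levels of 4 of 5 steroidogenic P450 genes lay on the pair of Notch3-/- UUO arrays. Cyp11a1, which starts steroid synthesis from cholesterol, was at 2.70 and 3.17 on replicates 2 and 3 and at or below -5.88, not well above background, on the other 7 arrays. Cyp21a1, which makes precursors of corticosterone and aldosterone, was at 6.58 and 6.98 against -3.71 to -1.37. Cyp11b1, which completes corticosterone, was at 4.69 and 5.15, and at -4.13 on wild-type UUO replicate 1, the 1 other array where it was well above background. Hsd3b1, another adrenal cortex gene, was also raised on that wild-type array, at -2.34 against -8.01 on its partner. Cyp21a1 was at -1.37 against -2.55 on these 2 arrays, and the cortex marker Akr1b7 did not differ (-0.81 and -0.80). The summed cortex markers were at 1.17 and 0.83 there and at 1.11 on wild-type healthy replicate 1. Cyp11b2, which completes aldosterone, was at -2.98 and -3.22 on Notch3-/- UUO replicates 2 and 3 and below background elsewhere.

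The adrenal cortex markers Star (3.62 and 3.83 against at most -3.84) and Nr5a1 (1.47 and 1.65 against at most -2.02) and the medulla marker Chga (4.07 and 4.34 against at most -4.54) were high on the same pair. Cyp11a1, Cyp11b1 and Cyp11b2 were above background on no Notch3-/- healthy array, and the means of the 3 Notch3-/- UUO arrays, 2 of which measured them, were at least 34.5-, 92.8- and 2.03-fold higher. These differences did not pass (adjusted p = 0.161, 0.149 and 0.193). Without the pair they lay below background in both groups and have no fold. Cyp21a1, measured on all 9 arrays, had an estimate of 6.26 that did not pass (adjusted p = 0.166) and was -0.72 on replicate 1 alone. Cyp17a1 did not share this pattern. The adult mouse adrenal is known to lack it, and it stood at 1.33 and 2.84, 2.49 and 2.52, 2.02 and 1.41, and 1.11, 0.997 and 0.95 in the 4 groups, lowest on the pair.

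**Figure D5:**
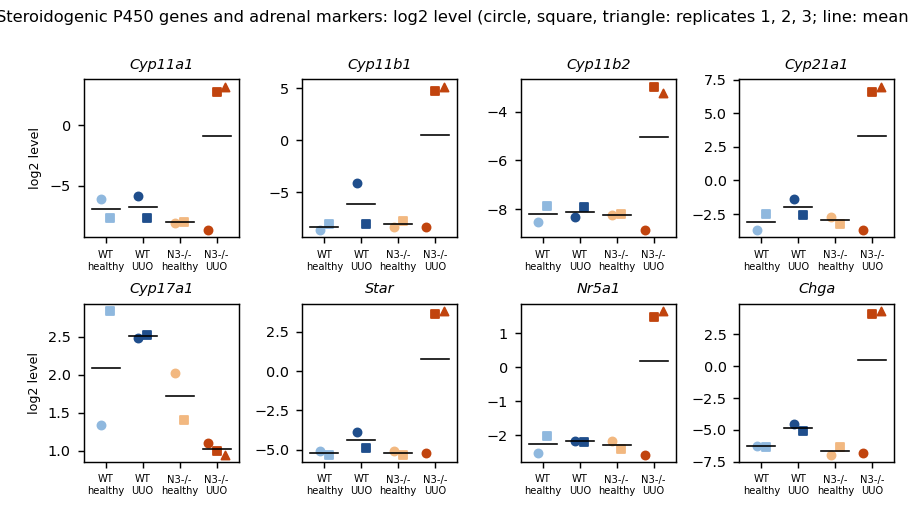
Log2 levels of 5 steroidogenic P450 genes and of the adrenal markers Star, Nr5a1 and Chga on each array, by group (WT, wild type; N3-/-, Notch3-/-), with replicates as circles, squares and triangles and group means as lines. Replicates 2 and 3 of the Notch3-/- UUO group, the square and the triangle, stand above all other arrays in 7 panels, and in the Cyp17a1 panel they are the lowest.

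Sterol, retinoic acid and family 3 members did not pass in either obstruction comparison. Besides Cyp7b1, the sterol group held Cyp27a1 (-0.83 and -0.88), Cyp39a1 (0.13 and -0.03) and Cyp46a1 (0.29 and -0.03). Cyp26b1, which clears retinoic acid, was at 0.84 and 0.56, -1.13 and -0.76, -1.69 and -1.15, and -2.12, 0.03 and -0.16 in the 4 groups, with estimates of -1.64 (adjusted p = 0.12) and 0.67, the latter -0.70 without the arrays with high Xist. Cyp26a1 changed by -0.45 and 0.16. Cyp3a11 changed by -0.20 and -0.03. Cyp3a13 changed by -0.08 in wild-type kidneys on its brightest probe and by 1.99 on a dimmer probe (adjusted p = 0.0397), so its direction is not settled. The orphan Cyp20a1 changed by -0.07 and 0.21. Among the 11 members with several probes, 0 had opposite calls.

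Loss of Notch3 was not seen to shift any member at the threshold. Between Notch3-/- and wild-type UUO kidneys 0 of 68 were called (14 at an unadjusted p under 0.05, smallest adjusted p = 0.0936), where 0.297% of all features were called, 0.0796% higher and 0.218% lower. Between the healthy groups 0 were called (7 at an unadjusted p under 0.05, smallest adjusted p = 0.106), where 0.511% were, 0.239% higher and 0.272% lower. Wild-type and Notch3-/- arrays were scanned on separate occasions, so occasion of scanning and genotype cannot be told apart.

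The smallest adjusted p between UUO kidneys belonged to Cyp4f14, at -3.26, -3.11 and -2.82 in Notch3-/- against -5.51 and -4.21 in wild-type kidneys (log2 1.80, SE 0.35). It passed on the authors' deposited values (1.21, adjusted p = 0.0309) and with normexp background correction (0.93, adjusted p = 0.042). Of the 68 members, 21 differed by at least 1 on the log2 scale without passing. Those with higher estimates in Notch3-/- UUO kidneys were Cyp2b10 (2.46, SE 0.65), Cyp2f2 (2.28, SE 1.41), Cyp2d26 (1.65, SE 0.37), Cyp4f14, Cyp11b1 (6.58, SE 3.91) and Cyp21a1 (5.25). Cyp11a1, Cyp11b2 and Cyp2c68 were above background on neither wild-type UUO array and were at least 29.7-, 1.949- and 1.41-fold higher, without passing. Cyp2f2, known from lung airway cells, stood at 0.72 and 1.93 on the pair with high Xist and at -3.28 on replicate 1, and its estimate turned to -0.80 without the pair.

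Lower estimates in Notch3-/- UUO kidneys were found for Cyp4f15 (-2.40), Cyp2c37 (-1.98), Cyp4a12a (-1.81), Cyp4b1-ps2 (-1.80), Cyp1a1 (-1.70), Cyp4a12b (-1.62), Cyp17a1 (-1.49), Cyp7b1 (-1.44), Cyp4b1 (-1.41), Cyp4a14 (-1.40), Cyp2c66 (-1.12) and Cyp3a11 (-1.04). Without the pair, the estimates of Cyp4b1, Cyp4b1-ps2, Cyp7b1 and Cyp4f15 turned to 1.71, 1.34, 0.93 and 0.14. Without Notch3-/- UUO replicate 1, 5 members passed: Cyp11a1, Cyp11b1, Cyp11b2 and Cyp21a1 higher, and Cyp4f15 lower. In healthy kidneys 9 members had estimates at least 1 lower in Notch3-/- than in wild type, from Cyp26b1 (-2.12, SE 0.68) through Cyp4a12a (-1.57), Cyp1b1 (-1.48), Cyp2d34 (-1.48), Cyp4a12b (-1.44) and Cyp3a11 (-1.21) to Cyp4f15 (-1.05). The other members were Cyp2c55, measured on 1 of 2 wild-type and 0 Notch3-/- healthy arrays and at least 1.07-fold lower, and Cyp11a1, which was below background in both groups and has no fold.

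Genes that supply P450 enzymes with electrons and heme fell with them in part. Of 20 such genes, 10 fell and 1 rose in wild-type and 8 fell and 0 rose in Notch3-/- kidneys, with medians of -0.69 and -0.47. Over all features 11.8% and 13.9% fell. Por, the reductase of the endoplasmic reticulum, changed by -1.32 and -1.08 (adjusted p = 0.0171 and 0.0242), and cytochrome b5 (Cyb5a) by -1.71 and -1.82 (adjusted p = 0.0374 and 0.0254). Alas1, the first step of heme synthesis, fell in wild-type kidneys (-1.01, adjusted p = 0.0381) and had -0.51 in Notch3-/- kidneys (adjusted p = 0.171). Fech, Uros and Urod of heme synthesis fell in both genotypes. Hmox1, which breaks heme down, rose in wild-type kidneys (1.18, adjusted p = 0.0271) and had 0.56 in Notch3-/- kidneys. The mitochondrial partner Fdxr was at 3.57 and 3.73 on the pair with the adrenal transcripts and at most 0.99 elsewhere.

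Of 21 regulators, 1 rose and 5 fell in wild-type, and 2 rose and 7 fell in Notch3-/- kidneys. Over all features 14.1% rose and 11.8% fell in wild-type, and 13.3% rose and 13.9% fell in Notch3-/- kidneys. In either direction 25.9% of all features were called in wild-type kidneys, a share near that of the regulators. Ppara, which drives Cyp4a genes, fell by 1.68 and 1.502 on the log2 scale (adjusted p = 0.0163 and 0.0188). Hnf4a had -1.32 in wild-type (adjusted p = 0.0575) and fell by 1.49 in Notch3-/- kidneys (adjusted p = 0.0312). The xenobiotic receptor Nr1i2 rose in Notch3-/- kidneys (0.74, adjusted p = 0.0289), with 0.55 in wild type. Nr1i3, its relative, was lower in Notch3-/- than in wild-type UUO kidneys, at -4.75, -4.71 and -4.87 against -2.92 and -2.99 (log2 -1.82, adjusted p = 0.0256).

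Among 11 measured genes of the arachidonate routes beside P450, 3 rose in each genotype, where 14.1% and 13.3% of all features rose. These were Pla2g4a, Alox5 and Ptgs2, which release arachidonic acid or feed it into leukotrienes and prostaglandins. Over the alternatives the Ptgs2 change ranged from 0.71 to 3.58 in wild-type and from 0.07 to 3.05 in Notch3-/- kidneys. For Alox5 the ranges were 0.60 to 1.54 and 0.39 to 1.69, and for Pla2g4a 0.97 to 1.67 and 1.31 to 1.68. Ephx2, the hydrolase that removes epoxides made by Cyp2c and Cyp2j enzymes, fell by 1.59 and 1.63 on the log2 scale (adjusted p = 0.0372 and 0.0275). Alox12 fell in wild-type kidneys (-1.43, adjusted p = 0.0149). Ephx1, the microsomal hydrolase, changed by -0.13 and 0.84 and did not pass.

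Proximal tubule markers moved with the P450 falls. Of 13, 8 fell in wild-type and 11 in Notch3-/- kidneys and 0 rose, with medians of -1.92 and -1.85, where 11.8% and 13.9% of all features fell. Their summed level was 10.42 to 10.76 in wild-type healthy, 9.16 to 9.57 in wild-type UUO, 10.61 to 10.77 in Notch3-/- healthy and 8.72 to 9.87 in Notch3-/- UUO kidneys. In these bulk samples fewer tubule cells and less RNA per cell cannot be told apart, and the part of tubule content in the P450 levels was not tested. Of 7 liver markers, 2 fell and 1 rose in wild-type and 3 fell and 1 rose in Notch3-/- kidneys, Alb by -4.98 and -2.63. Endothelial and urothelial markers had 0 of 4 calls each in both obstruction comparisons, podocyte markers 2 of 3 lower in wild-type and 0 in Notch3-/- kidneys, and adipocyte markers 1 of 4 lower in each.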

How the data were processed

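The 9 arrays were used as deposited. Spot intensity came from Agilent Feature Extraction, version 10.7.3.1 per the file headers and 10.5 per the submitters' processing notes, background-corrected by that software. Here log2 processed intensity minus each array's 75th percentile over non-control spots was taken, outlier-flagged spots were left out, spots of a probe averaged, and 29336 of 39429 probes well above background on at least 2 arrays kept. RefSeq's gene table (GRCm38.p6) named 27234 probes, and the brightest probe stood for a gene. The authors' deposited log2 value table (correlation 0.971 to 0.986 with these arrays, column medians 7.02 to 7.05, normalization not given in the sources used here) served as an alternative. limma 3.58.1 in R 4.3.3 fitted the 4 group means over 9 arrays (5 residual degrees of freedom, eBayes, Benjamini-Hochberg over 23878 features), and was tested on simulated data. The number of arrays limits the precision.

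All members could be named. Levels by array are given for most of the 15 largest called changes in each direction and most sex-dependent, Cyp4f and steroidogenic members. Others are given as ranges, bounds, changes or part of the arrays, among them Cyp2c67, Cyp2c68, Cyp2j13, Cyp4a12b, Cyp4f13, Cyp4f17 and Cyp4f41-ps. Genotype differences of at least 1 are given as not passing. AGGTCA as a lone motif was added later. Proteins are not used here. One regulator and one planned motif are not reported here. Members, lists, tests and alternatives were chosen with earlier results of these data known. The alternatives were quantile and normexp normalization, the authors' table, dim-probe filters, probe averaging, moderation, array weights, slide and replicate blocks, other sets of arrays and thresholds.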

Additional observations from a re-analysis of the deposited data

How the results depend on the processing

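In wild-type obstruction all 24 called members kept their direction under every alternative and 4 kept their call, and in Notch3-/- obstruction 20 of 21 and 1. The wild-type count was 9 with slide as a random block and 6 at an adjusted p under 0.01, and 5 to 14 when 1 array was left out. The Notch3-/- count was 33 (4 higher, 29 lower, against 5 and 16) with normexp, 42 with array weights, 13 with only the groups compared, 1 without the arrays with high Xist, 4 with a term for them, 2 on the slide that holds all Notch3-/- UUO arrays, 5 at an adjusted p under 0.01, and 3 to 41 when 1 array was left out. Between UUO kidneys it was 1 with normexp, 1 on the authors' values, 25 with array weights, 4 with only the groups compared, and 0 to 5 when 1 array was left out. The interaction count was 0 to 3 when 1 array was left out, the 3 being Cyp11a1, Cyp11b2 and Cyp21a1 without Notch3-/- UUO replicate 1. Of these, Cyp11a1 and Cyp11b2 are members only through Notch3-/- UUO replicates 2 and 3. The healthy genotype count stayed at 0. Apart from the smaller number of arrays in some fits, the cause was not tested. Normexp moved the median of all features to -0.23 in Notch3-/- obstruction (from -0.07) and to 0.18 between healthy kidneys (from 0.06). Counts over all features moved as well. In wild-type obstruction they were 1703 higher and 703 lower with slide as a random block (from 3373 and 2806). In Notch3-/- obstruction they were 2364 and 6032 with normexp and 5299 and 6241 with array weights (from 3171 and 3322). Between UUO kidneys they were 1859 and 2321 with array weights (from 19 and 52).

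The replicate number as a block (pairing correlations -0.17 to 0.16, too few pairs to show that numbers pair the arrays) gave 11 called members in wild-type and 3 in Notch3-/- obstruction and 0 elsewhere. The crossed block between healthy kidneys, chosen after seeing the data, gave 0.

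Among members that were called or had an estimate of at least 2-fold, estimates reversed for Cyp2c66, which was called, and for uncalled members: 1 of 14 in wild-type obstruction, 5 of 15 in Notch3-/- obstruction, 9 of 21 between UUO kidneys and 2 of 9 between healthy kidneys. Cyp2c37 in wild-type obstruction was -0.18 without wild-type healthy replicate 1 and 2.41 without wild-type healthy replicate 2. Normexp gave -0.34 for Cyp2c55 and -0.35 for Cyp2c66 in Notch3-/- obstruction, and 0.26 for Cyp11a1 and 0.27 for Cyp2c55 between healthy kidneys. Without the arrays with high Xist, and equally with a term for them, Cyp11a1, Cyp11b1, Cyp11b2 and Cyp21a1 were at -0.67, -0.32, -0.64 and -0.72 in Notch3-/- obstruction and at -1.92, -2.27, -0.76 and -1.73 between UUO kidneys, where Cyp2f2 was at -0.80, Cyp4b1 at 1.71, Cyp4b1-ps2 at 1.34, Cyp4f15 at 0.14 and Cyp7b1 at 0.93. Of these, Cyp11a1, Cyp11b1 and Cyp11b2 are then below background in Notch3-/- kidneys, so their signs carry no order. Of estimates under 2-fold in Notch3-/- obstruction, Cyp2f2 went from 0.75 to -2.32, Cyp2a12 from 0.60 to -1.14, Cyp4a14 from 0.74 to -1.38 and Cyp26b1 from 0.67 to -0.70 without those arrays.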
